A study of Mus musculus with 27 samples.

Results

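The transcription factor p53, encoded by Trp53, and 9 of its known target genes were followed in single muscle fibers of mice that lack Smn in skeletal muscle. The 10 genes, Trp53, Mdm2, Cdkn1a, Ccng1, Gadd45a, Bax, Bbc3, Perp, Zmat3 and Eda2r, were found by their symbol in the gene name column of the array files, out of 35527 genes on the array. They were read by 13 probes, of which 11 gave a value on at least 75% of the 27 arrays. These 11 probes covered 9 genes of the 16636 that could be tested, and Zmat3 was the gene left out.

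Each array held the amplified RNA of 1 myofiber from the tibialis anterior of a male mouse, freed with type I collagenase and picked by hand, then amplified and labelled in 1 color. The WT group had 8 myofibers from 2 wild-type mice. The study's results call the controls littermates, while its methods name C57BL/6 GFP+ animals as a source of myofibers. The Smn1deltaSKM group had 12 myofibers from 3 mice in which Cre under the human alpha-skeletal actin promoter (HSA-Cre) removes the floxed exon 7 of Smn, a promoter active in skeletal muscle fibers. The Smn1deltaSKM+AFS group had 7 myofibers from 2 mice of the same genotype that received GFP+ c-kit+ amniotic fluid stem (AFS) cells by tail vein. Groups, mice and myofibers are counted here as the labels give them, and the study's text gives other totals of arrays and of AFS-treated mice. The labels give an age of 3 months for all groups, whereas the methods put the injection at 3 months and the dissection 1 month later. The first question was whether the p53 genes differ between Smn1deltaSKM and WT myofibers, and the second was whether they differ after AFS cells.

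p53 is held at a low level by Mdm2, a ubiquitin ligase that marks it for degradation and is itself a p53 target, so that p53 activity is set mainly by protein stability and less by the level of its mRNA. When freed, p53 binds pairs of a short palindromic half-site and switches on genes that stop the cell cycle, open the mitochondrial death pathway or feed back on p53. In skeletal muscle Cdkn1a and Gadd45a are best known as genes induced when a fiber loses its nerve or wastes, and p53 has been studied in motor neurons that lack SMN.

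A level is given as the log2 signal of a probe minus the 75th percentile of its array, so 0 is the level of a fairly bright probe. Probes with a value per array numbered 23864 to 34001 in WT, 23170 to 37580 in Smn1deltaSKM and 25868 to 30478 in Smn1deltaSKM+AFS. The 2 Smn1 probes checked the labels. A_55_P2048848 had mouse means of 1.86 and 1.84 in WT, of -0.07, 0.20 and 0.36 in Smn1deltaSKM, and of -0.34 and 0.82 in Smn1deltaSKM+AFS. It fell by 1.68 in Smn1deltaSKM (SE 0.368, limma adjusted p = 0.02). A_55_P2048560 differed by 0.19 (limma adjusted p = 0.711), and the position of either probe relative to exon 7 was not worked out. The summed level of 9 myofiber markers, on a linear scale where 1 is the array's 75th percentile, was 1700 to 2820 in WT, 1220 to 2000 in Smn1deltaSKM and 1780 to 2310 in Smn1deltaSKM+AFS. Among markers of other cells, 5 of satellite cells summed to 0.713 to 2.47 in WT, 1.59 to 26.5 in Smn1deltaSKM and 2.21 to 5.43 in Smn1deltaSKM+AFS, 5 of fibroblasts to 0.319 to 61.2, 0.518 to 20 and 0.39 to 16.5, and 5 of macrophages to 22.3 to 35.6, 20.4 to 34.3 and 20.2 to 38.9, and their part in the group differences was not tested. All 8 WT arrays lay on 1 slide and were scanned on a day of their own, so batch and genotype cannot be told apart in any comparison with WT. Smn1deltaSKM mouse 1 stood apart from mice 2 and 3 for most of the p53 genes, so results are given with and without it where it changes them. This emphasis was chosen after seeing the data. Leaving out a mouse that stands apart also narrows the estimated spread, so calls made without it are a description and no further support. RNA from cells left on a fiber would enter its array, where fewer cells of a type and less RNA per cell cannot be told apart.

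Between Smn1deltaSKM and WT, the cyclin gene Ccng1 was lower and the death gene Bbc3 was higher. These 2 of the 9 genes passed an adjusted p of 0.05 in limma on mouse means, against a background of 22.0% of all genes tested. The members' share is near that background, as is the share with an unadjusted p under 0.05, 4 of 9 against 39.5%. In all, 6 of the 9 were higher and 3 lower, beside 7566 higher and 9070 lower of the 16636 genes tested. The members' median difference was 0.33 on the log2 scale, and over all genes tested the median was -0.11. The 3 Smn1deltaSKM mice lay wholly on one side of the 2 WT mice for 5 of the 9 genes, below for Mdm2 and Ccng1 and above for Gadd45a, Bbc3 and Eda2r. Over all genes 33.3% lay below and 22.3% above, 55.6% in all.

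**Figure D1:**
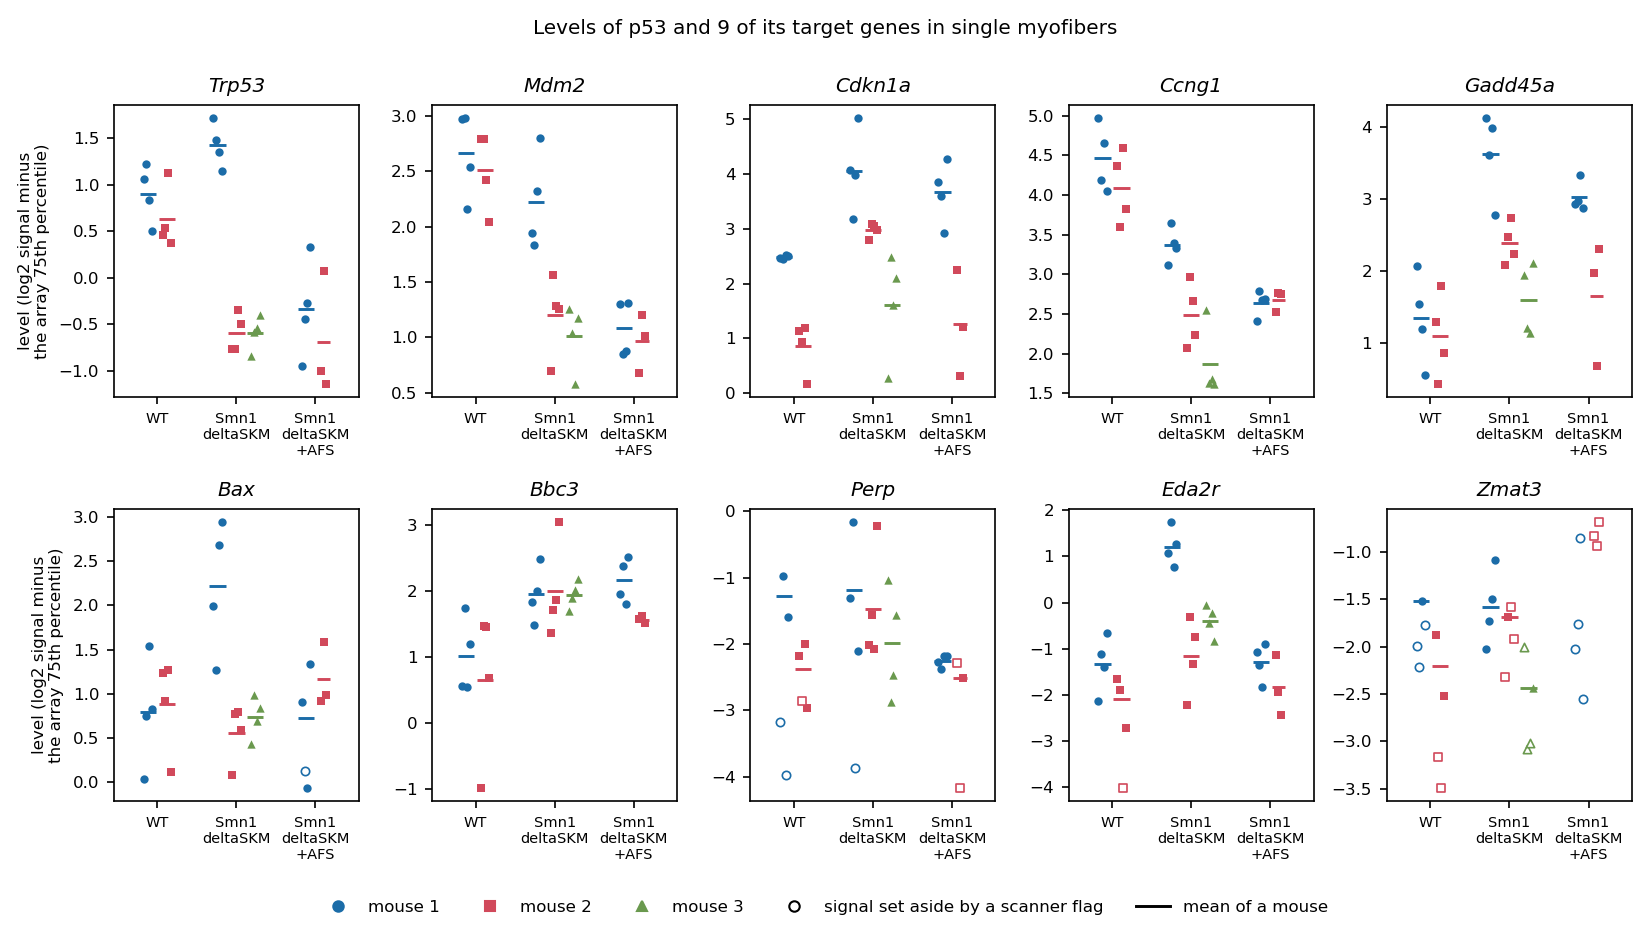
Level of each gene (log2 signal minus the array's 75th percentile, vertical axis) in every myofiber, by group, with a dash for the mean of a mouse; mouse numbers and colors start anew in each group, and open symbols are signals that a scanner flag set aside. All Smn1deltaSKM and Smn1deltaSKM+AFS values of Ccng1 lie near or below the lowest WT myofiber at 3.59, and Smn1deltaSKM mouse 1 sits above mice 2 and 3 in most panels.

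Trp53, the p53 gene itself, was measured on all 27 arrays. Its myofibers ranged from 0.38 to 1.22 around a median of 0.69 in WT, from -0.84 to 1.72 around -0.45 in Smn1deltaSKM, and from -1.14 to 0.33 around -0.44 in Smn1deltaSKM+AFS. Mouse means were 0.90 and 0.62 in WT, 1.42, -0.60 and -0.59 in Smn1deltaSKM, and -0.33 and -0.69 in Smn1deltaSKM+AFS. Smn1deltaSKM mouse 1 was therefore above both WT mice while mice 2 and 3 were below them. The difference from WT was -0.68 (SE 0.581, limma adjusted p = 0.409). Without Smn1deltaSKM mouse 1 it was -1.36 (limma adjusted p = 0.00563), in a fit that called 43.4% of all genes.

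Mdm2, the ligase that restrains p53, had myofibers from 2.04 to 2.98 around 2.66 in WT, from 0.58 to 2.80 around 1.27 in Smn1deltaSKM, and from 0.68 to 1.31 around 1.01 in Smn1deltaSKM+AFS. Mouse means were 2.66 and 2.51 in WT, 2.22, 1.20 and 1.01 in Smn1deltaSKM, and 1.08 and 0.96 in Smn1deltaSKM+AFS. No mean of the mutant mice reached a WT mean. The difference of -1.11 between Smn1deltaSKM and WT (SE 0.378) did not pass the threshold (limma adjusted p = 0.0668). It was -1.48 without Smn1deltaSKM mouse 1 (limma adjusted p = 0.00365), in the fit that called 43.4% of all genes.

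Cdkn1a encodes p21, an inhibitor of cyclin-dependent kinases and the classic p53 target. On the probe that stands for the gene, A_51_P363947, WT myofibers ranged from 0.17 to 2.52 around 1.81, Smn1deltaSKM from 0.28 to 5.02 around 3.01, and Smn1deltaSKM+AFS from 0.31 to 4.27 around 2.92. Mouse means were 2.48 and 0.86 in WT, 4.06, 2.98 and 1.62 in Smn1deltaSKM, and 3.66 and 1.25 in Smn1deltaSKM+AFS. Mice of 1 group lay farther apart than the group means did, and all 3 groups overlapped. The difference from WT was 1.22 (SE 0.883, limma adjusted p = 0.335). It was 0.63 without Smn1deltaSKM mouse 1, 1.85 without Smn1deltaSKM mouse 3, 2.03 without WT mouse 1 and 0.40 without WT mouse 2.

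Cdkn1a was the only one of the 10 genes with 3 probes, and the first 30 of the 60 bases of each are shown because the probes gave different patterns. Positions are those of the array files, on mm9.
A_51_P363947, chr17:29237377-29237436: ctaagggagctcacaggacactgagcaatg
A_55_P1986282, chr17:29227986-29228045: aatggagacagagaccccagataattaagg
A_55_P1976204, chr17:29235299-29235358: tggggtagtttccatagtgacccgggtcct
A_55_P1986282 is annotated to a second Cdkn1a transcript, NM_001111099, and starts 9391 bases upstream of A_51_P363947. It was well above background on 2 of 8 WT arrays, 12 of 12 Smn1deltaSKM arrays and 7 of 7 Smn1deltaSKM+AFS arrays, and so passed the filter through the mutant arrays. The 4 myofibers of Smn1deltaSKM mouse 1 ranged from 0.86 to 2.26, those of mouse 2 from -1.91 to -1.03 and those of mouse 3 from -1.42 to -1.07. Smn1deltaSKM+AFS mouse means were -1.78 and -2.0, and the 2 WT values were -2.56 and -2.37. Mouse 1 was thus far above every other mouse on this probe. With 6 of the 8 WT arrays not well above background, no difference from WT is given for it. The third probe, A_55_P1976204, had Smn1deltaSKM means of -1.09, 0.28 and -0.18, the first from 1 of 4 myofibers, so mouse 1 was lowest there. Its WT means were -0.84 and -1.17, and the difference was 0.68 (limma adjusted p = 0.265).

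**Figure D2:**
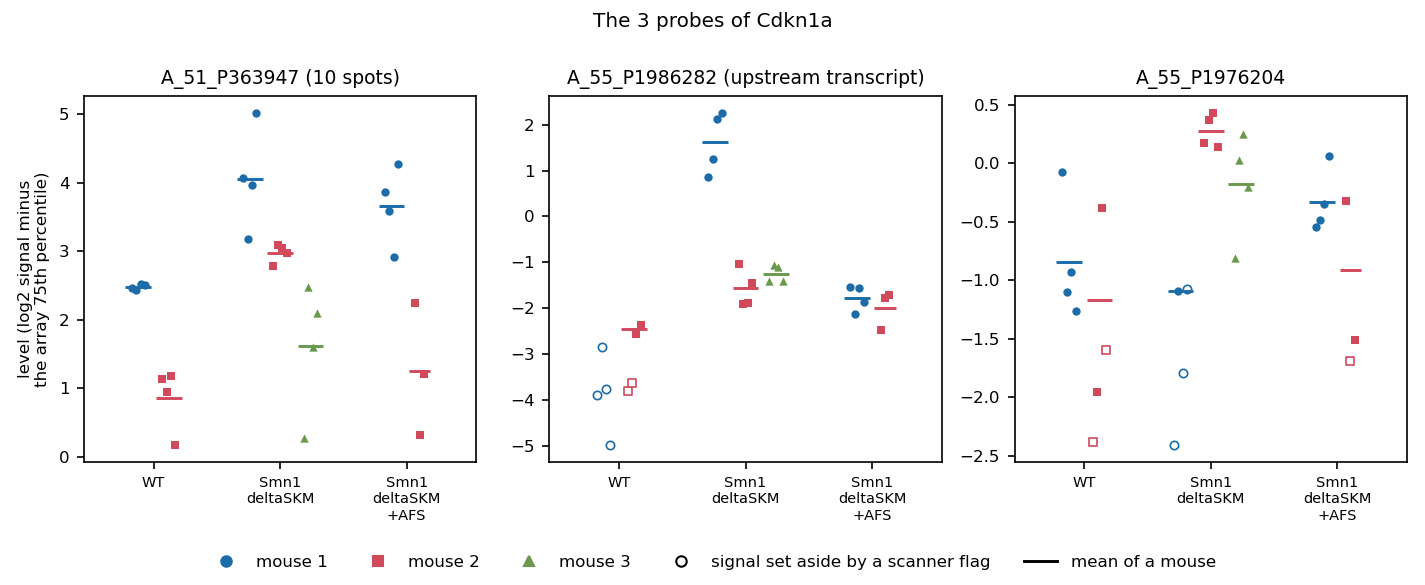
Level of the 3 Cdkn1a probes (log2 signal minus the array's 75th percentile, vertical axis) in every myofiber, by group, with symbols as in the plot of all 10 genes. Smn1deltaSKM mouse 1 is highest on the first 2 probes, with means of 4.06 and 1.62, and lowest of its group on the third.

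Ccng1, a p53-induced cyclin that works back on Mdm2, fell in Smn1deltaSKM. Its myofibers ranged from 3.59 to 4.97 around 4.28 in WT, from 1.62 to 3.65 around 2.60 in Smn1deltaSKM, and from 2.41 to 2.79 around 2.69 in Smn1deltaSKM+AFS. Mouse means were 4.47 and 4.09 in WT, 3.37, 2.48 and 1.87 in Smn1deltaSKM, and 2.64 and 2.68 in Smn1deltaSKM+AFS. The mice did not overlap, and the difference of -1.70 (SE 0.422), a 3.25-fold lower level, passed the threshold (limma adjusted p = 0.0274). The call was lost without WT mouse 1, WT mouse 2, Smn1deltaSKM mouse 2 or Smn1deltaSKM mouse 3, where the difference was -1.52, -1.89, -1.66 and -1.35 (limma adjusted p = 0.201, 0.104, 0.0715 and 0.0627).

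Gadd45a, a stress gene that slows the cell cycle and takes part in DNA repair, had myofibers from 0.44 to 2.07 around 1.24 in WT, from 1.14 to 4.12 around 2.35 in Smn1deltaSKM, and from 0.69 to 3.33 around 2.87 in Smn1deltaSKM+AFS. Mouse means were 1.34 and 1.10 in WT, 3.62, 2.38 and 1.60 in Smn1deltaSKM, and 3.03 and 1.65 in Smn1deltaSKM+AFS. Every mutant mouse was above both WT mice, although single myofibers overlapped. The difference of 1.31 (SE 0.601) did not pass the threshold (limma adjusted p = 0.141), and it was 0.77 without Smn1deltaSKM mouse 1.

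Bbc3 encodes PUMA, a BH3-only protein that frees Bax to act. It rose in Smn1deltaSKM. Its myofibers ranged from -0.98 to 1.74 around 0.94 in WT, from 1.36 to 3.05 around 1.88 in Smn1deltaSKM, and from 1.51 to 2.52 around 1.8 in Smn1deltaSKM+AFS. Mouse means were 1.01 and 0.66 in WT, 1.95, 2.00 and 1.95 in Smn1deltaSKM, and 2.17 and 1.57 in Smn1deltaSKM+AFS. The mice did not overlap, although single myofibers did, and the 3 Smn1deltaSKM means had an SD of 0.0297. The WT mouse 2 mean of 0.66 includes 1 myofiber at -0.98, with its other myofibers at 0.68 to 1.47, and no fit was made without it. The difference was 1.13 (SE 0.284), a 2.19-fold higher level (limma adjusted p = 0.0283). Leaving out WT mouse 1, WT mouse 2, Smn1deltaSKM mouse 2 or Smn1deltaSKM mouse 3 gave 1.31, 0.95, 1.12 and 1.14, none past the threshold (limma adjusted p = 0.151, 0.167, 0.0778 and 0.0701). The call was also lost with the slide treated as a random block over myofibers (1.14, limma adjusted p = 0.189) and with mouse number as a replicate block (1.14, limma adjusted p = 0.0601).

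Bax, the pore-forming protein of the outer mitochondrial membrane, had myofibers from 0.04 to 1.54 around 0.87 in WT, from 0.08 to 2.94 around 0.81 in Smn1deltaSKM, and from -0.06 to 1.59 around 0.96 in 6 of 7 Smn1deltaSKM+AFS myofibers. Mouse means were 0.79 and 0.88 in WT, 2.22, 0.56 and 0.73 in Smn1deltaSKM, and 0.73 and 1.17 in Smn1deltaSKM+AFS. Among the Smn1deltaSKM mice only mouse 1 exceeded the WT mice. The difference of 0.33 (SE 0.483, limma adjusted p = 0.635) became -0.19 without that mouse.

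Perp, a membrane protein of cell junctions that p53 also induces in apoptosis, had a value on 5 of 8, 11 of 12 and 5 of 7 arrays of WT, Smn1deltaSKM and Smn1deltaSKM+AFS. Its mouse means were -1.28 and -2.38 in WT, -1.19, -1.47 and -1.98 in Smn1deltaSKM, and -2.26 and -2.52 in Smn1deltaSKM+AFS. Perp thus passed the filter mainly through the Smn1deltaSKM arrays, where it was highest. WT and Smn1deltaSKM mice overlapped, with a difference of 0.28 (SE 0.391, limma adjusted p = 0.617) that was 0.10 without Smn1deltaSKM mouse 1. With all signals kept as measured the difference was 0.70.

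Eda2r, a receptor of the tumor necrosis factor receptor family, was read by A_51_P161323 on 26 of 27 arrays. Myofibers ranged from -2.72 to -0.66 around -1.66 in WT, from -2.22 to 1.75 around -0.28 in Smn1deltaSKM, and from -2.44 to -0.90 around -1.35 in Smn1deltaSKM+AFS. Mouse means were -1.33 and -2.09 in WT, 1.21, -1.15 and -0.39 in Smn1deltaSKM, and -1.29 and -1.84 in Smn1deltaSKM+AFS. All 3 Smn1deltaSKM means were above both WT means, mouse 1 by far the most. The difference of 1.60 (SE 0.627) did not pass the threshold (limma adjusted p = 0.0973), and it was 0.94 without Smn1deltaSKM mouse 1. A second probe, A_66_P122860, had values on 19 of 27 arrays and failed the filter. Its Smn1deltaSKM means were 0.45, -2.25 and -1.49 against -1.79 and -1.81 in WT, so there only mouse 1 and mouse 3 were above WT.

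Zmat3, a p53-induced zinc finger protein that binds RNA, could not be tested. Its spot was not located by the scanner software on 16 of 27 arrays, among them all 7 of Smn1deltaSKM+AFS, although its signal was well above background on 25 of 27. Kept as measured, its median signal was -2.10 in WT, -1.96 in Smn1deltaSKM and -0.94 in Smn1deltaSKM+AFS. In that fit Smn1deltaSKM differed from WT by 0.29 (SE 0.466, limma adjusted p = 0.679).

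**Figure D3:**
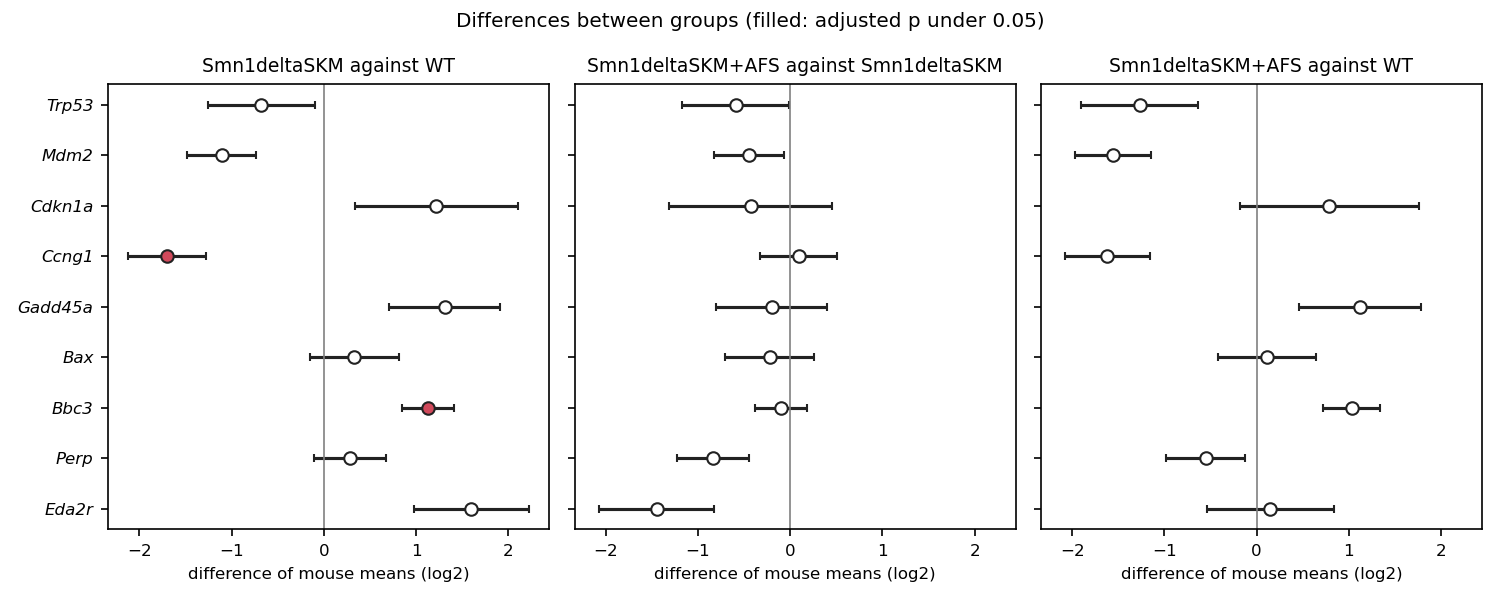
Difference of mouse means on the log2 scale (horizontal axis) for the 9 genes tested, in 3 panels for the 3 comparisons, with bars of 1 SE from limma and filled points where the adjusted p was under 0.05. The filled points are Ccng1 at -1.70 and Bbc3 at 1.13, both between Smn1deltaSKM and WT.

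The other genes of the pathway were read beside the background of all genes tested, of which 8.06% were called higher and 13.9% lower in Smn1deltaSKM against WT. Of 18 tested regulators of p53, 2 were called higher and 1 lower, and the list's median difference was -0.51. The deacetylase gene Sirt1 rose by 1.28 (limma adjusted p = 0.0196). The other higher call, the checkpoint kinase gene Chek1, had a value on 4 of 8 WT and 12 of 12 Smn1deltaSKM arrays and so passed the filter through the group where it was high, and no size is given for it. Hipk2, a kinase that phosphorylates p53, fell by 1.13 (limma adjusted p = 0.0425). Mdm4, the partner of Mdm2, differed by -1.02 (limma adjusted p = 0.0757).

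Among 19 other p53 targets, 2 rose and 2 fell, and the median difference was 0.06. Gdf15, a secreted stress factor, rose by 1.49 (limma adjusted p = 0.0182). Ddit4, an inhibitor of mTORC1, fell by 1.92 (limma adjusted p = 0.0205), and Phlda3, an inhibitor of Akt, fell by 1.31 (limma adjusted p = 0.0418).

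Of 13 genes of the mitochondrial death pathway, 3 were called higher and 3 lower, and the median difference was -0.12. Mcl1 and Bcl2, which restrain Bax, rose by 1.68 and 1.01 (limma adjusted p = 0.0253 and 0.0335). The other higher call, the BH3-only gene Bcl2l11, had a value on 2 of 8 WT and 12 of 12 Smn1deltaSKM arrays, passed the filter in the same way as Chek1 and is given no size. Bad, Endog and Cycs, for a BH3-only protein, a mitochondrial nuclease and cytochrome c, fell by 1.28, 1.27 and 1.16 (limma adjusted p = 0.0216, 0.0166 and 0.0419).

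Of 10 gene family relatives of the members, 1 passed the threshold, with a list median of -0.51. Cdkn1b, which encodes the kinase inhibitor p27 and belongs to the family of Cdkn1a, had means of 4.59 and 4.26 in WT, 1.91, 2.12 and 2.15 in Smn1deltaSKM, and 1.68 and 2.26 in Smn1deltaSKM+AFS. It fell by 2.37 in Smn1deltaSKM (SE 0.286, limma adjusted p = 0.00638) and by 2.46 in Smn1deltaSKM+AFS against WT (limma adjusted p = 0.0135).

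No member passed the threshold between Smn1deltaSKM+AFS and Smn1deltaSKM. The background was 0 of 16636 genes at an adjusted p under 0.05 in limma, and 531 genes, 3.19%, had an unadjusted p under 0.05. Of the 9 members 8 were lower after AFS cells, beside 7092 of the 16636 genes tested. Their median difference was -0.43 against 0.06 over all genes, and 1, Eda2r, had an unadjusted p under 0.05. Both Smn1deltaSKM+AFS mice were below all 3 Smn1deltaSKM mice for Eda2r and Perp, as for 4.18% of all genes. Perp passed the filter mainly through the Smn1deltaSKM arrays, where it was highest, so its order among mice is not counted as support. Its mean in Smn1deltaSKM+AFS mouse 2 came from 1 of 3 myofibers. Eda2r differed by -1.45 (SE 0.627, unadjusted p = 0.0481, limma adjusted p = 0.9997) and Perp by -0.84 (SE 0.391, unadjusted p = 0.0633, limma adjusted p = 0.9997). Both groups shared 2 scan days. Smn1deltaSKM mouse 1 alone stands for its group on day 1, and its myofiber 4 is 1 of the 3 mouse means on day 2. The 2 days thus both draw on that mouse. Within day 1, with 1 mouse a group, Eda2r differed by -2.79, and within day 2, with 2 and 3 mice, by -1.32. For Perp these values were -1.55 and -0.52, and for Trp53 -1.87 and -0.49. Without Smn1deltaSKM mouse 1 Eda2r differed by -0.79, Mdm2 by -0.08 and Ccng1 by 0.49, and the differences of Trp53, Cdkn1a, Gadd45a and Bax turned to 0.08, 0.16, 0.35 and 0.30. Ccng1 and Bbc3 differed by 0.09 (SE 0.422) and -0.10 (SE 0.284) after AFS cells.

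Against WT, no member of Smn1deltaSKM+AFS passed the threshold in limma, beside a background of 7.81%, and 3 of the 9 had an unadjusted p under 0.05, beside 29.7% of all genes. The 3 were Mdm2 at -1.56, Ccng1 at -1.62 and Bbc3 at 1.03 (limma adjusted p = 0.0562, 0.0678 and 0.0758). Both Smn1deltaSKM+AFS mice lay outside the range of the WT mice for Trp53, Mdm2 and Ccng1, which were lower, and for Gadd45a and Bbc3, which were higher. Over all genes 36.1% were lower in this way and 31.8% higher, 67.9% in all. This comparison shares its WT mice with that of Smn1deltaSKM, and all 3 groups share 1 estimate of the spread. Without Smn1deltaSKM mouse 1, Trp53, Mdm2, Ccng1 and Bbc3 passed the threshold at unchanged differences (limma adjusted p = 0.0107, 0.00528, 0.00855 and 0.0293), in a fit that called 29.1% of all genes.

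A further contrast among these genes lay within the Smn1deltaSKM group. All 4 myofibers of mouse 1 were above the other 8 for 7 of the 8 members with a value in all 12, namely Trp53, Mdm2, Cdkn1a, Ccng1, Gadd45a, Bax and Eda2r. Over 12997 genes with 12 values this was so for 9.96%, against 1.46% for mouse 2 and 3.31% for mouse 3. This is a description of 1 mouse, seen in the data and not tested. Mouse 1 exceeded the mean of mice 2 and 3 by 2.02 for Trp53, 1.99 for Eda2r, 1.77 for Cdkn1a, 1.63 for Gadd45a, 1.57 for Bax, 1.20 for Ccng1 and 1.12 for Mdm2. Bbc3 differed by -0.02, so the gene for PUMA was level among the 3 mice where these 7 genes were not. The median over the 9 members was 1.57, and over all genes -0.13. The arrays of mouse 1 also had fewer probes with a value, 23170 to 27996 against 30919 to 37580 in mice 2 and 3, with no overlap, and the part of this in the contrast was not tested.

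**Figure D4:**
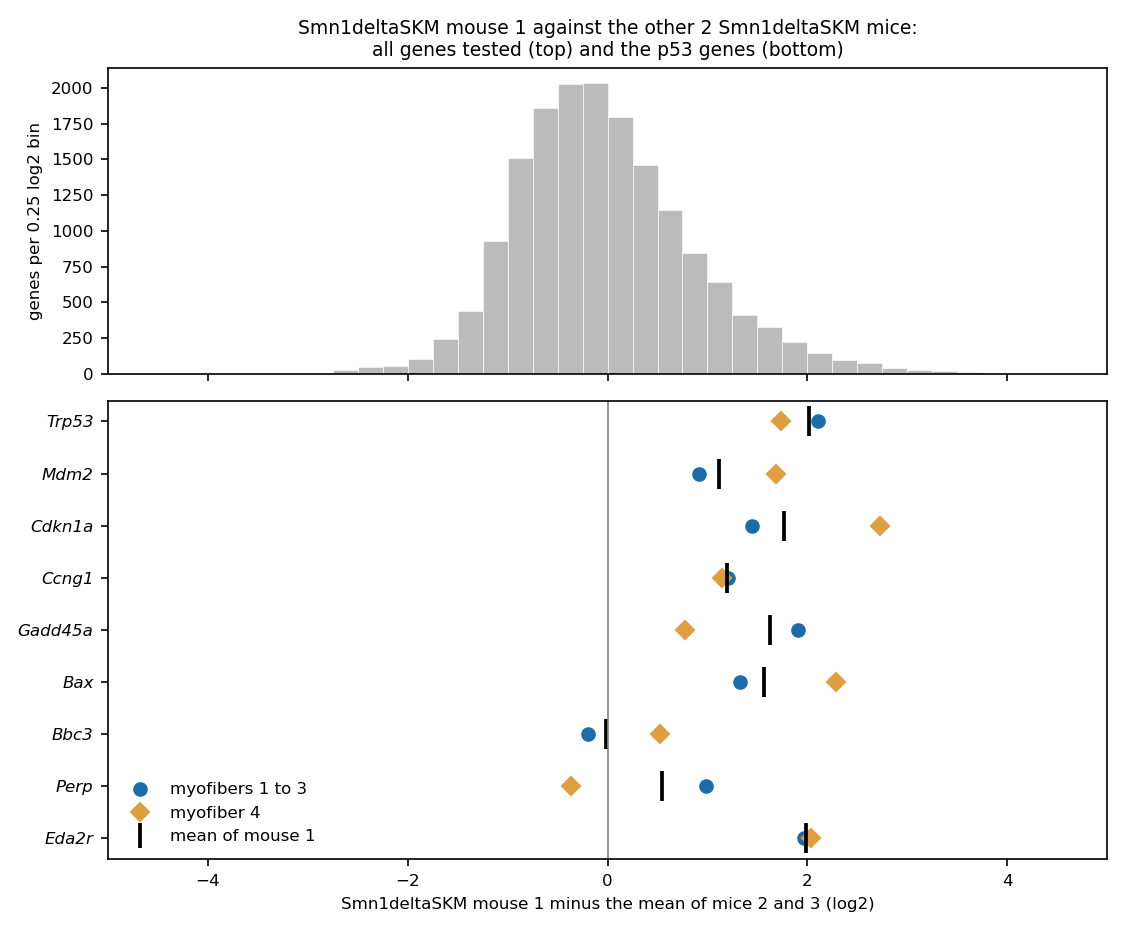
Difference between Smn1deltaSKM mouse 1 and the mean of mice 2 and 3 on the log2 scale (horizontal axis), as a histogram of all genes tested above and for the p53 genes below, split into myofibers 1 to 3 and myofiber 4, which was scanned on another slide and day. The members' median is 1.57 and that of all genes is -0.13.

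All 8 arrays of mice 2 and 3 lay on 1 slide that held none of mouse 1, so slide and mouse cannot be told apart in this contrast. The array of myofiber 4 of mouse 1 was on a different slide and scan day from those of myofibers 1 to 3. Its median excess over mice 2 and 3 was 1.69 for the 9 members, and that of myofibers 1 to 3 was 1.33. With other scalings of the arrays 5 to 7 of 8 or 9 members remained above, beside 8.69% to 9.23% of all genes. Trp53, Gadd45a, Bax and Eda2r were among them each time. Cdkn1a and Ccng1 fell out with quantile normalization, Ccng1 and Mdm2 with normexp and quantile normalization, and Cdkn1a with the authors' table. Of 16 other p53 targets with 12 values, 3 were above and 1 below in mouse 1, and of 15 regulators 2 were above and 2 below. Of 11 genes of the mitochondrial death pathway 2 were above and 0 below, and of 8 gene family relatives 1 was above and 3 below. Over all genes 14.6% were below in mouse 1. Bcl2l1, which restrains Bax, had means of 3.25 in mouse 1 and of 0.01 and 0.62 in mice 2 and 3. Cdkn1c, the third kinase inhibitor gene of the Cdkn1a family, had 2.83 against -0.46 and -1.02. Btg2, the p53 target that was below in mouse 1, had 1.61 against 5 and 4.23.

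Markers of other cells also differed in mouse 1. The summed linear level of 5 fibroblast markers was 5.11 to 20 in its myofibers, 4.21 to 8.94 in mouse 2 and 0.518 to 9.90 in mouse 3, and Col3a1 averaged 2.34 on the log2 scale against -0.32 in mice 2 and 3. The 5 satellite cell markers summed to 1.95 to 26.5 in mouse 1, 1.59 to 2.56 in mouse 2 and 1.84 to 2.74 in mouse 3. Their mean log2 sums were 2.15, 1.01 and 1.14, so 26.5 does not stand for most myofibers of mouse 1. The fibroblast and satellite cell ranges of mouse 1 overlapped those of mice 2 and 3. The defining markers Pdgfra and Myf5 had no value on any array, and Pax7 had one on 3 arrays. The sum of the 5 endothelial markers was lower, at 8.50 to 10.5 in mouse 1, which was below every myofiber of mice 2 and 3, whose highest sums were 15 and 16.8. Most of this sum was Kdr, at a mean log2 level of 3.19 in mouse 1 against 3.63. Pecam1, Cdh5, Tek and Emcn averaged -2.96 to -4.75 in mouse 1, often without a value. The 5 macrophage markers summed to 20.4 to 23.6 in mouse 1, 27.1 to 34.3 in mouse 2 and 23.3 to 25 in mouse 3. Most of this sum was Csf1r, at 4.12 in mouse 1 against 4.24. Ptprc, Emr1 and Cd68 were also lower in mouse 1, and Cd14 was higher. Hba-a1, a red cell gene, was at -0.63 in mouse 1 against 1.75. The part of these cells in the p53 values was not tested.

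Promoter sequence of the members was searched for the p53 half-site. The members were chosen as p53 and its known targets, so their share of matches is no test of p53 in these data. RefSeq windows of 300 bases on GRCm38.p6, from 250 before to 50 after a transcript's start, were matched for 8 of the 10 genes, in 11 windows, with none for Perp and Zmat3. A perfect half-site of the p53 consensus, which reads the same on both strands, was in 6 of the 11 windows and in 8.36% of 32851 windows of all genes. The stretches of 30 bases around each match are shown on the gene's strand, with the half-site in capitals and its distance before the start.
Trp53, chr11:69580274-69580303, + strand, 75 bases: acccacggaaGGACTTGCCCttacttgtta
Mdm2, chr10:117710925-117710954, - strand, 186 bases: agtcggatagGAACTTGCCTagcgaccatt
Cdkn1a, chr17:29090896-29090925, + strand, 73 bases: tcctgggtggGGACTAGCTTtctggccttc
Cdkn1a, chr17:29090918-29090947, + strand, 51 bases: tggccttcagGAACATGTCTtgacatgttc
Ccng1, chr11:40755452-40755481, - strand, 185 bases: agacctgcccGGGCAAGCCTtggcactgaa
Gadd45a, chr6:67037428-67037457, - strand, 40 bases: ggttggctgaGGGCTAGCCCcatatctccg
Bax, chr7:45467080-45467109, - strand, 201 bases: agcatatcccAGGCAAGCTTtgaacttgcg
Cdkn1a alone among the members had a pair, 12 bases apart, in the window of its upstream transcript. A pair at most 13 bases apart was in 24 of all windows, 0.0731%. The second window of Cdkn1a, the 3 of Bbc3 and that of Eda2r held no perfect half-site. A match describes the letters and not a bound site, and the windows leave out introns and distant sites.

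Across the 27 myofibers the members fell into different patterns. Pearson's r over myofibers, which share mice, slides and scan days and so carry no p-value, was 0.849 for Mdm2 and Ccng1, 0.782 for Trp53 and Mdm2, and 0.711 for Trp53 and Ccng1. It was 0.721 for Cdkn1a and Gadd45a, and -0.62 for Ccng1 and Bbc3. These values pool the 3 groups, so differences between groups enter them, and r within a group was not computed. Of 10168 genes measured in all 27 myofibers, the named genes most like Trp53 were Cdkn1c (r = 0.933) and Vkorc1 (r = 0.91). Those most like Mdm2 were A2ld1 (r = 0.945) and Tesk1 (r = 0.93), and for Ccng1 Gm12271 (r = 0.951) and Smpdl3a (r = 0.936). Gadd45a was followed most closely by Fbxo30 (r = 0.905), which encodes the muscle ubiquitin ligase MUSA1. Cdkn1a had lower likeness, with Ftl2 at 0.783, and Bbc3 had Exoc3l2 at 0.866.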

How the data were processed

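Single myofibers of the tibialis anterior were profiled on 27 Agilent 1-color arrays of 55681 probes. The authors extracted RNA, amplified it with a whole transcriptome kit and scanned each array, and the deposited scanner files hold the processed signal intensity of each spot from Agilent Feature Extraction 10.7.3.1. A deposited table of intensities normalized within and between arrays by the authors, put on the log2 scale here, served as an alternative only. Its columns followed the scanner values on each array (Pearson's r across probes of at least 0.999, slopes of 0.906 to 1.15) with medians of 5.84 to 7.47, and how it was centred is not given in the sources used here.

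From the intensities, log2 minus the array's 75th percentile over noncontrol spots was computed. A value was missing where the spot was not found or not well above background, after the study's methods, and spots with an outlier flag were also left out. Replicate spots of 1 probe were combined as their mean, a probe was kept where at least 21 arrays (75%) had a value, and the brightest probe stood for a gene. Myofibers of a mouse were averaged and the 7 mouse means were fitted by limma 3.58.1 (R 4.3.3), with Benjamini-Hochberg adjustment over 16636 genes. The 3 groups shared 1 spread, and an adjusted p under 0.05 was a call. Fits were tested on simulated data. With 2 or 3 mice a group, the number of arrays limits precision. Named genes were the 10 members, called genes of 4 pathway lists, Mdm4 and, per member, those most like it. Bcl2l1, Cdkn1c and Btg2 were also named for their values in Smn1deltaSKM mouse 1, after seeing the data. The values of 1 gene of the lists are not reported here. The members and lists were chosen with earlier results of these data known. Alternatives changed the scaling, filters, probe rule, replicate unit, blocks (slide, mouse number, scan day) and mice left out. Promoter sequences came from RefSeq (GRCm38.p6) and probe positions from the array files (mm9).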

Additional observations from a re-analysis of the deposited data

Results flagged for a closer look

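Bbc3 in WT mouse 2 myofiber 1 was at -0.98, far below the other 7 WT myofibers, of which the nearest was at 0.55. The gap of this myofiber made up 0.565 of the range of the 8. It was 1 of 18 gene and group combinations tested this way, and chance flags about 1 in 20.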

How the results depend on the processing

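With each of the 7 mice left out in turn and under the other settings, 518 of 585 member differences kept direction and side of the threshold, 29 gained a call and 11 lost one, and 27 reversed, none of them called. Of the 2 members called between Smn1deltaSKM and WT, Bbc3 also lost its call with the slide treated as a random block (1.14, limma adjusted p = 0.189) and with no filter and all signals kept (1.13, limma adjusted p = 0.0513). That count was 5 with myofibers as replicates and mouse as a random block, 6 with myofibers alone, 1 with slide as a random block, 1 with no filter and all signals kept, and 0 to 4 with 1 mouse left out (4 without Smn1deltaSKM mouse 1). For Smn1deltaSKM+AFS against WT (0 called) it was 3, 5 and 2 in turn in the myofiber fits and 1 in each scan day setting. No background is given. It was 4 without Smn1deltaSKM mouse 1 (29.1% of all genes). Between Smn1deltaSKM+AFS and Smn1deltaSKM it was 0 in each setting run. All genes called between Smn1deltaSKM and WT numbered 3661, and 1833 with the slide block, 5910 and 9077 in the other myofiber fits, and 7226 without Smn1deltaSKM mouse 1, 0 without WT mouse 1 and 4 without WT mouse 2, where the lone WT mouse is assumed to vary like the others. The settings by scan day, those with no filter and all signals kept, and the other scalings for Smn1deltaSKM mouse 1 were chosen after seeing the data. So was the focus on fits without that mouse.

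Mouse numbers start anew in each group, but they partly follow batch. Smn1deltaSKM mouse 1 and Smn1deltaSKM+AFS mouse 1 shared a slide and were the only mice with arrays on scan day 1. Same-numbered means, taken as deviations from their group mean, correlated at -0.065 to 0.308. In groups of 2 mice these deviations mirror each other, so the values cannot settle whether numbers pair mice. With mouse number as replicate block, 4 members were called between Smn1deltaSKM and WT (Cdkn1a, Gadd45a, Eda2r and Ccng1, of 2375 genes). Bbc3 had an adjusted p of 0.0601. Smn1deltaSKM+AFS against WT had 1 call, with no background.

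Reversed values between Smn1deltaSKM and WT were -0.19 for Bax without Smn1deltaSKM mouse 1 and, for Perp, -0.27 without WT mouse 2 and -0.02 without the Smn1deltaSKM arrays of scan day 1 or on days 2 and 3. Between Smn1deltaSKM+AFS and Smn1deltaSKM they were 0.08 (Trp53), 0.16 (Cdkn1a), 0.35 (Gadd45a) and 0.30 (Bax) without Smn1deltaSKM mouse 1, and 0.77 (Cdkn1a), 0.49 (Gadd45a) and 0.20 (Bbc3) without Smn1deltaSKM+AFS mouse 2. For Ccng1 they were -0.01 with normexp, 0 with the authors' table or the median of common probes, -0.23 with the slide block, -0.27 with the replicate block and -0.27 without Smn1deltaSKM mouse 3, and for Gadd45a 0.09 without the Smn1deltaSKM arrays of scan day 1 and 0.02 on days 2 and 3. Between Smn1deltaSKM+AFS and WT, Cdkn1a was at -0.28 with the mean of its probes, -0.02 without WT mouse 2 and -0.41 without Smn1deltaSKM+AFS mouse 1, Bax at -0.11 with the slide block and -0.10 without Smn1deltaSKM+AFS mouse 2, and Eda2r at -0.02 with normexp, -0.24 without WT mouse 2 and -0.13 without Smn1deltaSKM+AFS mouse 1. With 1 mouse left out at a time these results ranged as follows: between Smn1deltaSKM and WT, Bax from -0.19 to 0.64 and Perp from -0.27 to 0.83; between Smn1deltaSKM+AFS and Smn1deltaSKM, Trp53 from -0.93 to 0.08, Cdkn1a from -1.63 to 0.77, Gadd45a from -0.88 to 0.49, Bax from -0.53 to 0.30, Bbc3 from -0.40 to 0.20 and Ccng1 from -0.27 to 0.49; between Smn1deltaSKM+AFS and WT, Cdkn1a from -0.41 to 1.99, Bax from -0.10 to 0.33 and Eda2r from -0.24 to 0.53. The cause was not tested.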
